A study of Arabidopsis thaliana with 8 samples.

Results

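Aquaporins are channel proteins of the major intrinsic protein family, and the results below follow all 35 aquaporin loci of Arabidopsis in preparations enriched in guard cells from leaves of the wild type (Col-0) and of bam1, with and without heat. The members were taken as a list of loci, comprising 5 PIP1, 8 PIP2, 10 TIP, 9 NIP and 3 SIP loci, and their probes were found through the RefSeq accession given for each spot. They are 35 of the 25410 loci that the array's accessions resolved to. The rule used no measured value, although the family was picked with earlier results of these data known.

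Plasma membrane intrinsic proteins (PIPs) carry water, and some of them carbon dioxide or hydrogen peroxide, across the plasma membrane, and tonoplast intrinsic proteins (TIPs) do the same for the vacuole. NOD26-like intrinsic proteins (NIPs) mainly carry small uncharged solutes such as boric acid, and small basic intrinsic proteins (SIPs) lie in the endoplasmic reticulum. In a guard cell, water moving through these channels follows the osmotic changes that open and close the stomatal pore, and PIP2;1 is known for its part in stomatal closure in response to abscisic acid.

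Total RNA was hybridized to 8 one-colour Agilent arrays. The 4 groups of 2 were wild-type Col-0 and the homozygous T-DNA insertion line bam1, which lacks a functional β-amylase 1 (BAM1, a starch-degrading enzyme), each without and with heat. Plants were used at an age of 5 weeks. Without heat they stayed at 22 °C by day and 18 °C by night, and heated plants were kept at 32 °C and 28 °C for 3 d before harvest at the end of the light period. Each array held RNA of 5 to 8 pooled plants, which the labels call a biological replicate, and the mutant was a single insertion line. Epidermal fragments were prepared in a blender, so the material was enriched in guard cells and not sorted. Each of the 2 slides carried 1 array of every group.

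The targeted gene matched the labels. BAM1 (AT3G23920) had processed intensities of 3530 and 2090 under control and 4300 and 4700 under heat in Col-0, and 108 and 76.2 under control and 155 and 210 under heat in bam1. The share of probes well above background was 61.3% to 70.8% per array. All 10 guard cell markers were well above background on all 8 arrays, as were all 7 mesophyll, 10 vasculature and 6 epidermis markers, so other leaf cells contributed RNA. The summed normalized intensity of the guard cell list was 105000 to 112000 under control and 52100 to 58000 under heat in Col-0, and 66100 to 87300 under control and 43600 to 47400 under heat in bam1. It was lower under heat in both genotypes, without overlap, but TGG1, which was not called, made up 61% to 79% of that sum on every array. Of the 10 guard cell markers, 4 were called lower under heat in Col-0 and 1 in bam1. GC1 moved most, from a mean log2 level of 13.93 under control to 8.89 under heat in Col-0, and from 12.82 to 7.72 in bam1. FAMA alone had a higher mean under heat in Col-0, at 11.37 under control and 11.45 under heat. In bam1 FAMA (10.61 and 11.08), KAT2, GORK and ALMT12 had higher means under heat, and the other markers had lower ones. The mesophyll list stayed between 725000 and 841000 over the 8 arrays and the vasculature list between 120000 and 160000, but single markers moved within them. Under heat, 1 of the 7 mesophyll markers (LHCB2.1), or 14.3%, fell in each genotype. Of the 10 vasculature markers, 3 rose (30%) and 1 fell (10%) in Col-0, and 2 rose (20%) and 1 fell (10%) in bam1. Among all tested probes, 11.4% rose and 10.2% fell in Col-0, and 11.0% rose and 11.4% fell in bam1. A count of 1 in lists this short lies near those shares. The epidermis list lay at 51300 to 66800 under control and 59300 to 117000 under heat in Col-0, and 48600 to 58400 under control and 92600 to 115000 under heat in bam1, and its single gene LTP1, which was not called, made up 66.9% to 86.0% of that sum on every array. Of the 6 epidermis markers, 1 rose in each genotype (CER1), 1 fell in Col-0 (PDF1) and the others were not called. In such bulk samples, fewer cells of a type and less RNA per cell cannot be told apart.

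Heat changed many members of the family, and the direction differed between subfamilies. PIP2 and TIP loci made up nearly all of those that rose, while the 4 NIP loci that could be tested fell in Col-0. A gene was called where the limma test gave an adjusted p under 0.05 and the difference exceeded 2-fold, and 27 of the 35 members were bright enough to be tested. TIP3;2 and TIP2;3 passed this filter only through Col-0 heat and NIP7;1 only through Col-0 control, the groups where they were highest. Their differences are therefore not independent of the filter. The same holds for the calls of TIP3;2 and NIP7;1, which are included in the counts below. In Col-0, 7 of the 27 rose, or 25.9%, where 11.4% of all tested probes rose, and 6 fell, or 22.2%, where 10.2% of all probes fell. In bam1, 7 rose, again 25.9%, against 11.0% of all probes, and 3 fell, or 11.1%, against 11.4%. The share that fell in bam1 was thus close to that of all probes. Without Col-0 heat replicate 2, the count of 13 calls in Col-0 dropped to 7, whereas the 10 calls in bam1 became 9 to 12 when any array was left out.

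The calls covered 14 members, of which 9 were called in both genotypes and always in the same direction. How many of all probes were called in both genotypes was not counted, so this overlap has no background share beside it. All 4 heat arrays lay above all 4 control arrays for 10 members, or 37%, where 27.2% of all probes did so. All 4 lay below for 5 members, or 18.5%, where the share over all probes was 25.2%. The median change of the 27 members was 0.27 on the log2 scale in Col-0, with 0.31 on either slide, and the median over all probes was 0.01. In bam1 the median was 0.03, with 0.34 on slide 1 and -0.26 on slide 2, so the family as a whole had no common direction there. Over the 27 members the heat changes of the genotypes correlated with r = 0.89 (Pearson), as a description over genes, which are not independent and whose values come from the same slides. The same r over all probes was not computed.

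**Figure D1:**
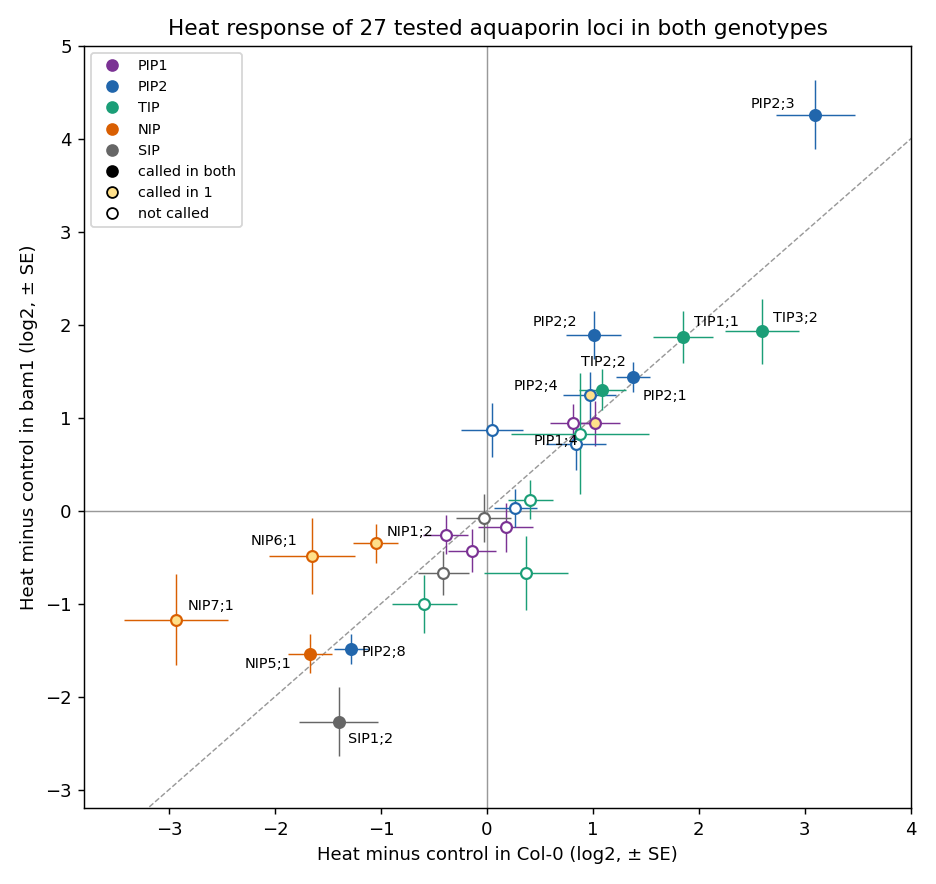
Fitted difference between heat and control (log2) of the 27 tested aquaporin loci in Col-0 (horizontal axis) and in bam1 (vertical axis), with bars for the SE, colours for the subfamily and the dashed line for equal change. The members called in both genotypes (filled) lie in the upper right and lower left, from -1.67 to 3.10 in Col-0 and from -2.27 to 4.26 in bam1. Of the 4 NIP loci, 3 were called in Col-0 only (yellow). The points of TIP3;2, TIP2;3 and NIP7;1 rest on signals that were not above background in 1 of the conditions.

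The PIP2 loci encode the water-conducting plasma membrane aquaporins, and all 8 were above background on all 8 arrays. In Col-0, 3 rose and 1 fell, and in bam1, 4 rose and 1 fell, with medians of 0.90 and 1.05 on the log2 scale. PIP2;3 (AT2G37180), also known as RESPONSIVE TO DESICCATION 28, had log2 levels of 5.56 and 4.77 under control and 8.08 and 8.45 under heat in Col-0, and 5.76 and 5.12 under control and 10.02 and 9.37 under heat in bam1. Every heat array was more than 2 log2 units above every control array, and both bam1 heat arrays were above both Col-0 heat arrays. The rise was 3.10 ± 0.37 (SE) on the log2 scale in Col-0, 8.57-fold (adjusted p = 0.00187), and 4.26 ± 0.37 in bam1, 19.1-fold (adjusted p = 0.000642). With normexp background correction, which adds an offset of 50 to every signal and so shrinks the differences of dim probes, both calls held but the changes shrank to 1.62 and 2.63. Its neighbour PIP2;2 (AT2G37170) lies next to it in the TAIR10.1 annotation and has a nearly identical coding sequence. It gave 10.00 and 9.73 under control and 10.80 and 10.96 under heat in Col-0, and 9.70 and 9.31 under control and 11.71 and 11.08 under heat in bam1. Again all heat arrays were the higher ones. It rose 2.02-fold in Col-0 (1.01 ± 0.26 SE, adjusted p = 0.0241) and 3.71-fold in bam1 (1.89 ± 0.26, adjusted p = 0.00267). Probe sequences were not used here, so how far either probe reads the other transcript was not tested. The call of AT2G37170 in Col-0 was also lost when any of the 4 Col-0 arrays was left out, with changes of 0.88 to 1.15 and adjusted p from 0.0532 to 0.118, and at 1.00 under scaling to the 75th percentile, 0.98 with normexp and an adjusted p of 0.05 with no filter on dim probes.

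PIP2;1 (AT3G53420), which carries water and hydrogen peroxide in guard cells and is phosphorylated by the kinase OST1, was at 14.21 and 14.29 under control and 15.50 and 15.76 under heat in Col-0, and 14.21 and 14.25 under control and 15.74 and 15.60 under heat in bam1. Replicates lay close together, and heat arrays stood more than 1 log2 unit above control arrays. The rise was 2.61-fold in Col-0 (1.38 ± 0.16 SE, adjusted p = 0.00151) and 2.72-fold in bam1 (1.44 ± 0.16, adjusted p = 0.00122). With arrays scaled to their 75th percentile it became 0.86 and 0.91 on the log2 scale, past the adjusted p (0.00607 and 0.00478) but within 2-fold. PIP2;4 (AT5G60660), known mainly from roots, gave 4.92 and 4.55 under control and 5.56 and 5.85 under heat in Col-0, and 4.55 and 5.05 under control and 5.85 and 6.24 under heat in bam1. The heat arrays were above the control arrays, and the difference was 0.97 ± 0.25 in Col-0 (adjusted p = 0.0267), just within 2-fold, and 1.24 ± 0.25 in bam1, a rise of 2.36-fold (adjusted p = 0.0111). The call in bam1 was lost without bam1 control replicate 1 (0.99, adjusted p = 0.05) or bam1 heat replicate 2 (1.04, adjusted p = 0.0636) and with normexp (0.35, adjusted p = 0.0869, and 0.27 in Col-0), and the Col-0 difference was called without Col-0 control replicate 1 (1.15, adjusted p = 0.0452).

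PIP2;8 (AT2G16850) went the opposite way. It was at 7.91 and 8.20 under control and 6.74 and 6.81 under heat in Col-0, and 8.47 and 8.37 under control and 6.93 and 6.92 under heat in bam1. Its heat arrays stood well below its control arrays, with close replicates. It fell by 1.28 ± 0.16 (SE) on the log2 scale in Col-0 (2.43-fold, adjusted p = 0.00198) and by 1.49 ± 0.16 in bam1 (2.81-fold, adjusted p = 0.00113). With normexp the changes were -0.78 and -0.85, within 2-fold, so that both calls were lost. The other 3 PIP2 loci were not called under heat. PIP2;7 (AT4G35100) had all 4 heat arrays above all 4 control arrays, from 14.38 to 14.93 against 13.14 to 14.22, with differences of 0.84 ± 0.28 in Col-0 (adjusted p = 0.0611) and 0.72 ± 0.28 in bam1 (adjusted p = 0.0917). PIP2;6 (AT2G39010) differed by 0.27 and 0.03, and PIP2;5 (AT3G54820) by 0.05 in Col-0 and 0.87 in bam1 (adjusted p = 0.0579). The difference of AT2G39010 turned negative with 75th percentile scaling (-0.36 and -0.60).

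PIP1 proteins reach the plasma membrane largely in complexes with PIP2 proteins, as shown in maize, and 1 of the 5 loci was called. PIP1;4 (AT4G00430) was at 11.05 and 10.64 under control and 11.89 and 11.84 under heat in Col-0, and 10.89 and 11.11 under control and 12.22 and 11.67 under heat in bam1. All heat arrays were above all control arrays. It rose by 1.02 ± 0.24 (SE) in Col-0, 2.02-fold (adjusted p = 0.0186), and the difference in bam1 was 0.94 ± 0.24 (adjusted p = 0.0233), within 2-fold. The Col-0 call sat at the fold limit and was lost without Col-0 control replicate 2 (0.81, adjusted p = 0.0847), Col-0 heat replicate 1 (0.99, adjusted p = 0.0873) or Col-0 heat replicate 2 (1.04, adjusted p = 0.0806), at 0.94 with 75th percentile scaling or normexp and at 0.71 as the mean of its probes, while without bam1 heat replicate 2 the bam1 difference was called (1.22, adjusted p = 0.0249). PIP1;2 (AT2G45960), which is known to ease the passage of carbon dioxide into leaf cells, was at 12.64 to 13.02 on the control arrays and 13.48 to 13.88 on the heat arrays. Its groups did not overlap and its differences passed the adjusted p within 2-fold, at 0.81 ± 0.21 in Col-0 (adjusted p = 0.0251) and 0.94 ± 0.21 in bam1 (adjusted p = 0.0144). The remaining PIP1;1 (AT3G61430), PIP1;3 (AT1G01620) and PIP1;5 (AT4G23400) differed by between -0.43 and 0.18 in either genotype, with overlapping heat and control arrays.

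Of the 10 TIP loci, 7 were tested, of which 3 rose in each genotype, and none was called lower on its brightest probe. TIP1;1 (AT2G36830), the most studied water channel of the vacuole, was at 13.07 and 13.77 under control and 15.04 and 15.50 under heat in Col-0, and 13.56 and 13.83 under control and 15.54 and 15.59 under heat in bam1. The lowest heat array was more than 1 log2 unit above the highest control array. It rose 3.61-fold in Col-0 (1.85 ± 0.28 SE, adjusted p = 0.00389) and 3.65-fold in bam1 (1.87 ± 0.28, adjusted p = 0.00364). TIP2;2 (AT4G17340) gave 13.54 and 13.04 under control and 14.21 and 14.55 under heat in Col-0, and 13.12 and 12.99 under control and 14.36 and 14.35 under heat in bam1. Its heat arrays were likewise all above its control arrays. The rise was 1.09 ± 0.22 in Col-0, 2.13-fold (adjusted p = 0.0102), and 1.30 ± 0.22 in bam1, 2.46-fold (adjusted p = 0.00533). In Col-0 this call was lost without Col-0 control replicate 2 (0.84, adjusted p = 0.0406) or Col-0 heat replicate 2 (0.92, adjusted p = 0.0679) and at 0.89 as the mean of its probes, and under 75th percentile scaling the changes were 0.78 and 0.97, within 2-fold.

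TIP3;2 (AT1G17810), a vacuolar aquaporin known from seeds, was not well above background on any control array, at 2.44 and 2.49 in Col-0 and 2.77 and 2.63 in bam1. Under heat it read 4.67 and 5.47 in Col-0, where both arrays were above background, and 4.21 and 5.05 in bam1, where 1 was. It was called in both genotypes (adjusted p = 0.00269 and 0.00722), and against the lowest signal above background it was at least 1.51-fold higher in Col-0. No fold is given for bam1, where 1 of the 2 heat arrays was not above background. With normexp background correction its call was lost in both genotypes, at 0.40 (adjusted p = 0.0575) and 0.30 (adjusted p = 0.129). The Col-0 value was smaller than the bound given. TIP2;1 (AT3G16240), which carries water and ammonia, was at 14.49 and 15.36 under control and 14.36 and 14.32 under heat in Col-0, and 15.40 and 15.72 under control and 14.35 and 14.78 under heat in bam1. The heat arrays overlapped the control arrays through Col-0 control replicate 1. The differences were -0.59 ± 0.31 in Col-0 (adjusted p = 0.192) and -1.0 ± 0.31 in bam1 (adjusted p = 0.0478), which is 1.99-fold and so just within the limit. In bam1 the difference exceeded 2-fold with 75th percentile scaling (-1.51), with normexp (-1.07) and as the mean of its probes (-1.38). The same settings gave -0.94, -0.68 and -0.80 in Col-0, within 2-fold. The other 3 tested TIP loci were not called, with TIP1;2 (AT3G26520) at 0.41 and 0.12, TIP2;3 (AT5G47450) at 0.88 and 0.83, and TIP5;1 (AT3G47440) at 0.37 and -0.67. The difference of AT3G26520 in bam1 was -0.27 with 75th percentile scaling.

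**Figure D2:**
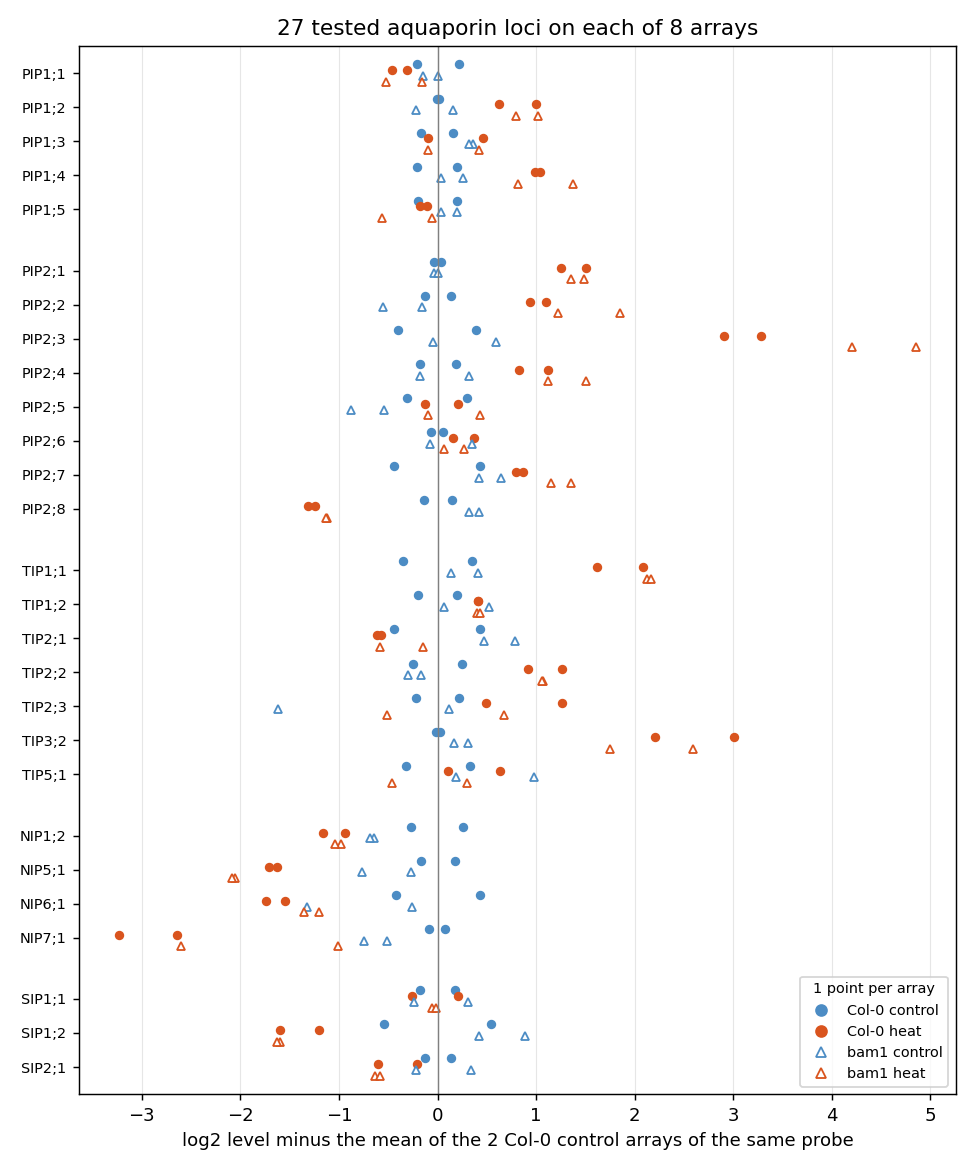
Log2 level of each tested aquaporin locus on each array (1 point per array), after subtracting the mean of the 2 Col-0 control arrays of the same probe, with control in blue, heat in red, Col-0 as filled circles and bam1 as open triangles. For 10 members all 4 red points lie to the right of all 4 blue points, and for 5 they lie to the left.

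All 4 NIP loci that could be tested were lower under heat in Col-0, and 1 of them in bam1. NIP5;1 (AT4G10380), a boric acid channel best known from roots, was at 8.70 and 8.35 under control and 6.89 and 6.81 under heat in Col-0, and 8.25 and 7.75 under control and 6.47 and 6.44 under heat in bam1. Heat and control arrays did not overlap. It fell by 1.67 ± 0.21 (SE) in Col-0, 3.19-fold (adjusted p = 0.00226), and by 1.54 ± 0.21 in bam1, 2.91-fold (adjusted p = 0.00286). The call in bam1 was lost with normexp (-0.96, within 2-fold). NIP6;1 (AT1G80760), a boric acid channel of the shoot, gave 11.18 and 10.33 under control and 9.20 and 9.01 under heat in Col-0, and 10.49 and 9.43 under control and 9.55 and 9.40 under heat in bam1. Its Col-0 groups were separate, but bam1 control replicate 2 lay among the heat arrays. It fell 3.13-fold in Col-0 (-1.65 ± 0.41, adjusted p = 0.0216), while the bam1 difference was -0.49 ± 0.41 (adjusted p = 0.39) and became 0.05 (adjusted p = 0.935) without bam1 control replicate 1. The Col-0 call was lost without Col-0 control replicate 1 (-1.22, adjusted p = 0.0955), Col-0 heat replicate 1 (-1.74, adjusted p = 0.0755) or Col-0 heat replicate 2 (-1.55, adjusted p = 0.102).

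NIP1;2 (AT4G18910), a transporter of aluminium malate in roots, was at 9.84 and 9.31 under control and 8.64 and 8.42 under heat in Col-0, and 8.94 and 8.90 under control and 8.60 and 8.54 under heat in bam1. The Col-0 control arrays were the highest and the bam1 control arrays lay between them and the heat arrays. It fell 2.07-fold in Col-0 (-1.05 ± 0.21 SE, adjusted p = 0.01), and differed by -0.35 ± 0.21 in bam1 (adjusted p = 0.233). This call was lost without Col-0 control replicate 1 (-0.78, adjusted p = 0.0355) or Col-0 heat replicate 2 (-0.94, adjusted p = 0.0674), and with normexp (-0.89, within 2-fold). NIP7;1 (AT3G06100), known from anthers, read 5.58 and 5.75 in Col-0 control, where both arrays were above background, and 5.16 and 4.92 in bam1 control, where 1 was. No heat array was above background, at 3.03 and 2.44 in Col-0 and 3.07 and 4.66 in bam1. It was at least 2.93-fold lower under heat in Col-0 (adjusted p = 0.00578). In bam1 it was not called (adjusted p = 0.11), and no fold is given, since 1 of the 2 control arrays was not above background. Without bam1 heat replicate 2 the bam1 difference was -1.97 and was called. With normexp the difference in Col-0 was -0.58, smaller than the bound given, and the call was lost. In bam1 it was -0.05 with normexp. Of the 10 guard cell markers, 4 fell in Col-0, or 40% (median -0.86), where 10.2% of all probes fell. In bam1, 1 of the 10 fell, or 10% (median -0.64), near the 11.4% of all probes. The part of guard cell content in the NIP differences was not tested.

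SIP1;2 (AT5G18290) was the SIP locus that fell in both genotypes. It was at 7.23 and 8.31 under control and 6.17 and 6.57 under heat in Col-0, and 8.19 and 8.66 under control and 6.17 and 6.14 under heat in bam1. The control replicates of Col-0 were more than 1 log2 unit apart, and yet all heat arrays were below all control arrays. It fell 2.63-fold in Col-0 (-1.40 ± 0.37 SE, adjusted p = 0.0277) and 4.82-fold in bam1 (-2.27 ± 0.37, adjusted p = 0.00496). In Col-0 the call was lost without Col-0 control replicate 2 (-0.85, adjusted p = 0.0775), Col-0 heat replicate 1 (-1.20, adjusted p = 0.132) or Col-0 heat replicate 2 (-1.60, adjusted p = 0.0707), with no filter on dim probes (adjusted p = 0.0577), with the Col-0 arrays fitted alone (adjusted p = 0.0657) and with normexp (-0.77), which left -1.30 in bam1. SIP1;1 (AT3G04090) differed by -0.03 and -0.08, and SIP2;1 (AT3G56950) by -0.41 and -0.67, and neither was called.

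The 8 members without a test were not well above background on both arrays of any group. They were TIP1;3 (AT4G01470), TIP3;1 (AT1G73190), TIP4;1 (AT2G25810), NIP1;1 (AT4G19030), NIP2;1 (AT2G34390), NIP3;1 (AT1G31885), and the neighbours NIP4;1 (AT5G37810) and NIP4;2 (AT5G37820). Several of these are known from pollen, seeds or roots. On all 8 arrays 6 of them stayed below that mark, AT5G37820 passed it on bam1 control replicate 1 alone and AT2G25810 on Col-0 heat replicate 1 alone. Above background on all 8 arrays were 23 members, comprising all 5 PIP1, all 8 PIP2, 4 of 10 TIP, 3 of 9 NIP and all 3 SIP loci.

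Several members were read by more than 1 probe, which allowed their heat responses to be compared within a locus. The family had 80 probes, of which 67, or 83.8%, were tested, and 13 loci had several tested probes, 53 in all. All 6 probes of PIP2;1 rose in both genotypes, with changes between 1.05 and 1.38 in Col-0, and between 1.44 and 1.77 in bam1. For AT2G36830 all 4 probes were positive and 3 were called in Col-0 and 2 in bam1. The 5 probes of TIP2;1 were all negative, and although its brightest probe was not called, 4 of the 5 fell in bam1, with changes from -1.71 to -1.0, and 1 of the 5 fell in Col-0, with changes from -1.17 to -0.59. For AT4G35100 all 5 probes were positive and none was called. The probes of AT3G26520 differed in sign and spanned -0.37 to 0.41 in Col-0, as did those of AT2G39010 with -0.42 to 0.27. Likewise, 1 of 4 probes of AT4G00430 was at -0.48 in bam1 where the others were positive, and only its brightest probe was called in Col-0.

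**Figure D3:**
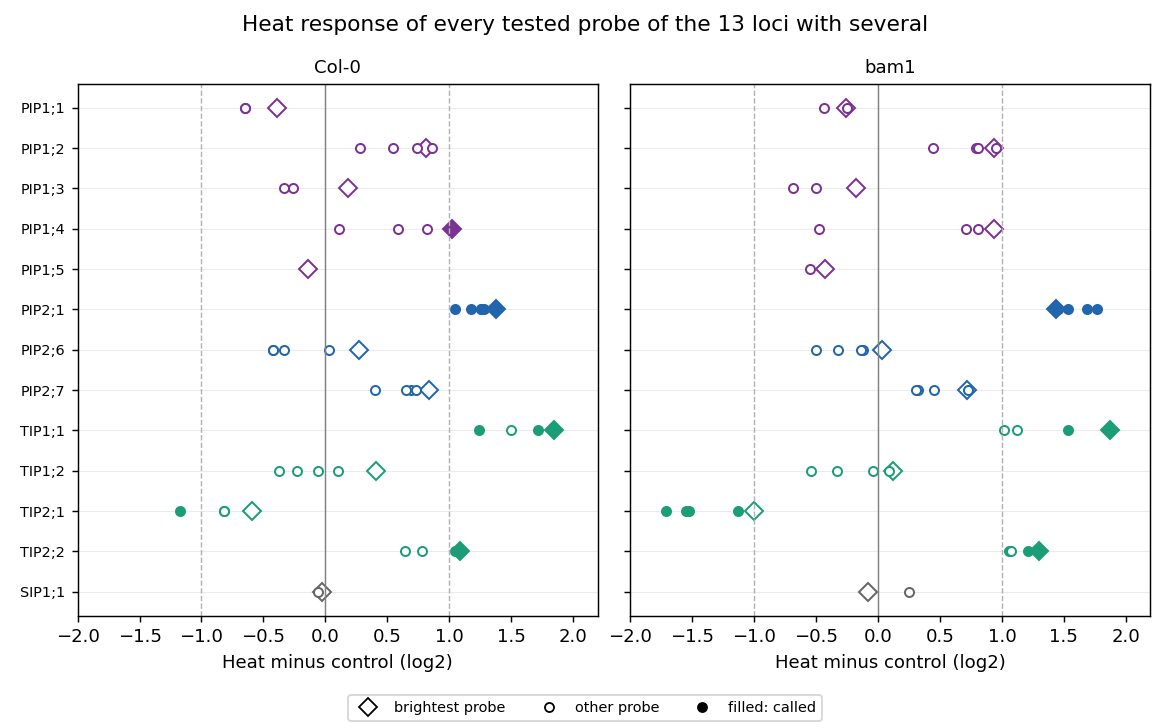
Fitted difference between heat and control (log2) of each of the 53 tested probes of the 13 loci with several, in Col-0 (left) and bam1 (right), with a diamond for the brightest probe, which stands for the locus, filled symbols for called probes and dashed lines at 2-fold. All 6 probes of PIP2;1 are filled on both sides, and for TIP2;1 4 of 5 are filled in bam1 although the diamond is open.

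The comparison of bam1 with Col-0 asks whether loss of BAM1 was accompanied by other aquaporin levels. No member was called under control conditions (0 of 27, where 0.00338% of all probes were called) or under heat (0 of 27, where 0% were). No heat response was called different between the genotypes (0 of 27, against 0.00338%), and no member differed over both conditions (0 of 27, against 0.00675%). Without adjustment, p was under 0.05 in limma for 3, 1, 2 and 2 of the 27 members. Over all 29615 tested probes it was so for 1186, 968, 814 and 1306. The t-test of the study's methods called no member in the 3 comparisons where it was run. These tests called little at this size, since BAM1 itself, 25.3-fold lower under control conditions, had an adjusted p of 0.0881 there and was called only over both conditions (-4.69 ± 0.25 SE, adjusted p = 0.00938). Median differences of the 27 members were 0.07 under control conditions and 0.04 under heat. Comparisons that share the same arrays are not independent of each other.

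PIP2;3 had the widest gap between the genotypes under heat, where bam1 (10.02 and 9.37) lay above Col-0 (8.08 and 8.45) by 1.43 ± 0.37 (SE, unadjusted p = 0.00753, adjusted p = 1). Under control conditions its arrays overlapped. The difference of its heat responses was 1.16 ± 0.53 (adjusted p = 0.999), with 1.74 on slide 1 and 0.57 on slide 2, and over both conditions it was 0.85 ± 0.26 higher in bam1 (adjusted p = 0.952). NIP7;1 showed the greatest difference of heat responses, 1.76 ± 0.70 (unadjusted p = 0.0423, adjusted p = 0.999), which came mainly from slide 2 (3.06, against 0.46 on slide 1) and rests on signals that were not above background under heat. AT1G80760 came next with 1.16 ± 0.57 (adjusted p = 0.999). Under control conditions bam1 gave lower values for all 4 tested NIP loci, by fitted differences of -0.80 to -0.53, none of them called. Of these, NIP7;1 entered the tests only through Col-0 control, so its direction here is not independent of the filter. The guard cell list was lower in bam1 in the same comparison (median -0.64 over 10 markers, none called), and its part was not tested.

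Among the other leading differences, PIP2;5 was at 5.73 and 5.12 under control and 5.30 and 5.64 under heat in Col-0, and 4.55 and 4.89 under control and 5.33 and 5.86 under heat in bam1. The bam1 control arrays were the lowest, and the difference under control conditions was -0.70 ± 0.29 (SE, unadjusted p = 0.0499, adjusted p = 1). The probe was dim, with processed intensities of 51.7 and 33.2 in Col-0 control and 22.7 and 19.2 in bam1 control. With normexp this difference shrank to -0.22. TIP2;3 read 3.98 and 4.42 under control and 4.69 and 5.46 under heat in Col-0, and 2.58 and 4.32 under control and 4.87 and 3.69 under heat in bam1. The bam1 replicates were more than 1 log2 unit apart in either condition, and the differences of -0.75 and -0.79 (± 0.65) did not exceed that spread. No control array was above background for TIP2;3, which entered the tests only through Col-0 heat. PIP2;7 was at 13.14 and 14.01 under control and 14.45 and 14.38 under heat in Col-0, and 14.00 and 14.22 under control and 14.93 and 14.73 under heat in bam1. Over both conditions it was 0.48 ± 0.20 higher in bam1 (unadjusted p = 0.053, adjusted p = 1), and all 5 of its probes were positive, by 0.32 to 0.50.

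**Figure D4:**
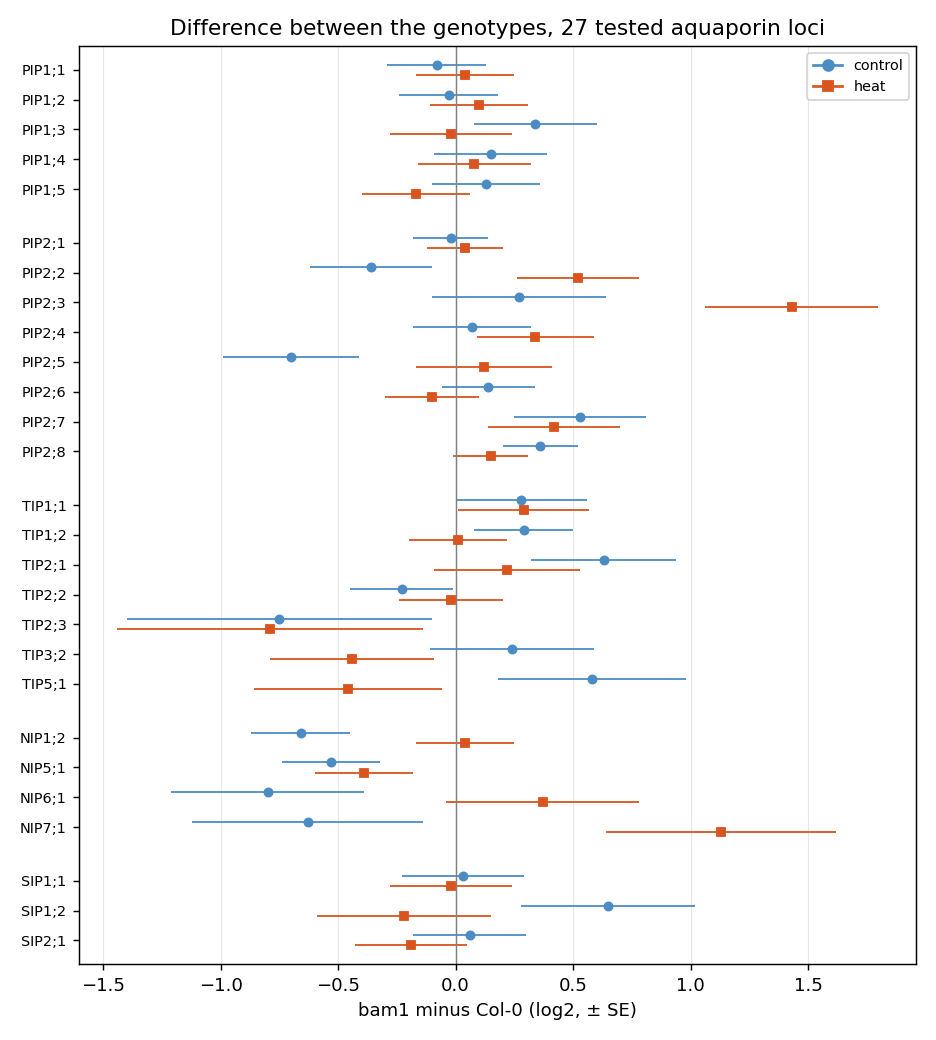
Fitted difference between bam1 and Col-0 (log2) of each tested aquaporin locus under control conditions (blue circles) and under heat (red squares), with bars for the SE. No difference was called, and the widest is that of PIP2;3 under heat at 1.43.

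Proteins that phosphorylate, traffic, bind or degrade PIP aquaporins were followed as a list of 13 genes, all tested. In each genotype 2 of them rose, or 15.4%, and 1 fell, or 7.69%, the same 3 genes, which is near the shares of all probes (11.4% and 10.2% in Col-0, 11.0% and 11.4% in bam1), and none was called between the genotypes. The median change of the list was -0.45 in Col-0 and -0.32 in bam1. TSPO (AT2G47770), a membrane protein that binds PIP2;7 and leads it to degradation, was at 4.60 and 3.84 under control and 8.58 and 8.74 under heat in Col-0, and 3.53 and 1.90 under control and 8.41 and 8.89 under heat in bam1. Its heat arrays were far above its control arrays, of which 1 in Col-0 and none in bam1 was above background. TSPO thus passed the filter only through the heat groups, where it was highest. Its calls, which are part of the counts above, are therefore not independent of the filter. It was called in both genotypes (adjusted p = 0.00187 in Col-0 and 0.000695 in bam1), at least 24.6-fold higher under heat in bam1, and no fold is given for Col-0, where 1 of the 2 control arrays had no signal well above background. RMA2 (AT4G28270), of a group of ubiquitin ligases that target PIP2;1, was at 11.64 and 11.82 under control and 13.12 and 13.34 under heat in Col-0, and 11.36 and 12.20 under control and 13.14 and 13.01 under heat in bam1. It rose without overlap, 2.82-fold in Col-0 (1.5 ± 0.28, adjusted p = 0.00845) and 2.45-fold in bam1 (1.29 ± 0.28, adjusted p = 0.0138). SYP121 (AT3G11820), a syntaxin that helps deliver PIP aquaporins to the plasma membrane, was at 10.80 and 10.46 under control and 8.49 and 8.40 under heat in Col-0, and 10.50 and 11.08 under control and 8.41 and 8.31 under heat in bam1. The heat arrays were all lower, and it fell 4.55-fold in Col-0 (-2.18 ± 0.23, adjusted p = 0.00127) and 5.38-fold in bam1 (-2.43 ± 0.23, adjusted p = 0.000823).

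The balance of higher and lower calls depended on how arrays were scaled. With each array scaled to its 75th percentile, 3 members rose and 6 fell in Col-0 in place of 7 and 6, and 5 rose and 4 fell in bam1 in place of 7 and 3. In this scaling the 7404 brightest tested probes, which included 13 members, had median heat changes of -0.16 in Col-0 and -0.19 in bam1, against 0.01 and 0 after quantile normalization. The 23 calls under heat kept their direction in all limma alternatives run, and 7 of them kept the call in each one. These were AT2G37180 (PIP2;3) and AT2G36830 (TIP1;1) in both genotypes, AT4G10380 (NIP5;1) in Col-0, and AT2G37170 (PIP2;2) and AT5G18290 (SIP1;2) in bam1. The methods' t-test is not among these alternatives, and after Benjamini-Hochberg adjustment it called no member under heat.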

How the data were processed

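Per the labels and the study's methods, Cy3-labelled RNA was hybridized to one-colour arrays, and the authors deposited the feature extraction output, whose processed intensity per spot was used here, and a table of log2 values. Intensities scaled here to the 75th percentile per array, in log2 and relative to the probe's median, matched 99.7% of these log2 values from the authors to within 0.05, whereas quantile normalization, which the methods name, matched 44.7%.

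Control spots and outliers were left out, spots of a probe averaged, and log2 intensities quantile-normalized. Of 43603 probes, 34348 were assigned to 25410 loci through RefSeq accessions (reference table TAIR10.1). The 29615 probes that passed the background mark in each array of 1 or more groups were fitted with limma 3.58.1 (R 4.3.3) as 4 group means over 8 arrays (4 residual degrees of freedom), with Benjamini-Hochberg adjustment over all of them. The same fit was also run on simulated data with known changes. Noise was drawn there independently for each array, so deviations shared by a slide were not simulated. The probe with the highest mean stood for its locus. Levels were not compared between probes. "At least" folds set the bright group against the lowest signal above background of any probe on the arrays of the other group. Probes brighter than that could still miss the background mark, so these folds are not strict lower limits.

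Every member called in any comparison, and the 3 with the largest absolute difference in each comparison involving genotype, were named with their arrays, and the rest by ranges and counts. Members, marker lists and the regulator list were chosen with earlier results of these data known. Same-numbered arrays share a slide, and their deviations from the group means correlated with r of 0.283 to 0.628 in the 6 pairs of groups, so the numbers pair the arrays. Alternatives were 75th percentile scaling, the log2 table, normexp correction (offset 50), other filters, probe averages, the replicate block, fits of the compared groups alone or with trend and robust settings, no fold limit, each array left out, and the methods' t-test. Promoter sequences were not used here. The p-values rest on 2 arrays per group, which limits their precision.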

Additional observations from a re-analysis of the deposited data

Results flagged for a closer look

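TIP4;1 (AT2G25810), which entered no comparison, read 5.50 on the log2 scale on Col-0 heat replicate 1, the only array on which it was well above background, against 3.36 on Col-0 heat replicate 2 and 2.13 and 2.26 on the Col-0 control arrays. It was looked at again because a signal above that of the control arrays appeared in a locus left out of the tests.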

How the results depend on the processing

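The replicate number as a block, which here is the slide, gave the same counts of called members as without it, 13 in Col-0 and 10 in bam1 under heat, and changed no other count. The 13 calls in Col-0 became 6 with normexp background correction (4 higher, 2 lower), where the 10 in bam1 became 7 (5 higher, 2 lower) and 11 of the 23 calls were lost, and 0 when p-values of the methods' t-test were adjusted by Benjamini-Hochberg, which also gave 0 in bam1. Without adjustment, that t-test with the 2-fold limit called 9 members in either genotype. Leaving out 1 array gave 7 to 13 calls in Col-0 and 9 to 12 in bam1. In the comparisons between genotypes 0 members were called in every setting run.

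The median heat change of the tested members in Col-0, 0.27, reversed to -0.07 with 75th percentile scaling, to -0.07 in the authors' log2 table and to -0.03 with the mean of all probes of a locus. It moved to 0.23 with normexp and to 0.18 with no filter or with a filter on all 8 arrays, and ranged from 0.21 to 0.41 when 1 array was left out. In bam1 it was 0.03, and -0.27 with 75th percentile scaling, where the median of all probes was -0.02. These medians therefore give the family no settled direction. The median difference between genotypes over both conditions, 0.03, ranged from -0.02 to 0.13 without 1 array. Of single members, the heat change of NIP6;1 in bam1 ranged from -1.02 to 0.05 and the control difference of TIP2;3 between genotypes from -1.62 to 0.13 without 1 array, both turning positive without bam1 control replicate 1. The causes were not tested. The t-test was not run for the difference of the heat responses, and fits of the compared groups alone do not exist for comparisons that use all 8 arrays. Probes not above background limit TIP3;2, NIP7;1 and TIP2;3.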
